A study of Mus musculus with 20 samples.

Results

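The genes of glycogen synthesis and breakdown described here are 9 mouse genes, Ppp1r3c, Ppp1r3b, Ppp1r3d, Gys1, Pygm, Pygl, Pygb, Gbe1 and Ugp2. They were taken by gene symbol from 2 tables of gene expression, 1 for each skin disease model, and all 9 were found among the 19234 genes of the AD table and the 19501 genes of the ACD table. RNA was sequenced from ears of C57BL/6 mice, 6 to 7 weeks old, in 4 groups of 5 libraries. In the AD model, 5 libraries came from mice given SB415286 at 0.7 mg/kg into the abdominal cavity and 5 from AD controls. In the ACD model, 5 libraries came from mice given SB415286 at 2 mg/kg by the same route and 5 from ACD controls. Ears were collected 4 h after the injection. The labels do not spell out AD or ACD, nor how either model was induced, and all 20 libraries carry one model or the other, so no ear without a model is among them. Controls are untreated by their sample labels but vehicle-injected by the design text, and both doses are tied to the AD model in the protocol text. Nothing in the labels says whether each library is 1 mouse, so p-values measure the spread between these libraries, which may be partly technical.

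Glycogen is a branched polymer of glucose that cells store and draw on. Ugp2 makes UDP-glucose, the donor of glucose units, Gys1 (muscle-type glycogen synthase) adds them to a growing chain, and Gbe1 (the branching enzyme) introduces the branches. The phosphorylases Pygm (muscle form), Pygl (liver form) and Pygb (brain form) release glucose 1-phosphate from the chains. Ppp1r3b, Ppp1r3c and Ppp1r3d are regulatory subunits that bring protein phosphatase 1 (PP1) to glycogen, where the phosphatase activates glycogen synthase and inactivates phosphorylase. GSK3, the kinase that SB415286 inhibits, phosphorylates and inactivates glycogen synthase, which is how it got its name. Transcript levels say nothing of the activity of these enzymes.

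Promoter sequences are shown for 3 members on which the comparisons turn: Ppp1r3c, the only member past the threshold with SB415286, and Ppp1r3d and Pygm, which differed between the models in opposite directions. They are RefSeq promoters on GRCm38.p6, run from 250 bases before to 50 bases after the annotated start, and are written 5′ to 3′ on the strand of the gene. Capitals mark the E-box letters CACGTG and CAGCTG, sites of basic helix-loop-helix factors. The CAGCTG form is known from muscle genes. The windows are chr19:36736555-36736854 on the minus strand for Ppp1r3c, chr2:178414414-178414713 on the minus strand for Ppp1r3d and chr19:6384158-6384457 on the plus strand for Pygm.
Ppp1r3c: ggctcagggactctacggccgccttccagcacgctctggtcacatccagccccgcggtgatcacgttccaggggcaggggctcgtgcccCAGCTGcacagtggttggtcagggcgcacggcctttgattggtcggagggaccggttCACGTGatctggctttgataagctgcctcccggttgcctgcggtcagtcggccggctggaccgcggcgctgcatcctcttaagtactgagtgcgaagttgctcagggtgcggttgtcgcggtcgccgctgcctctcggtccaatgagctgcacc
Ppp1r3d: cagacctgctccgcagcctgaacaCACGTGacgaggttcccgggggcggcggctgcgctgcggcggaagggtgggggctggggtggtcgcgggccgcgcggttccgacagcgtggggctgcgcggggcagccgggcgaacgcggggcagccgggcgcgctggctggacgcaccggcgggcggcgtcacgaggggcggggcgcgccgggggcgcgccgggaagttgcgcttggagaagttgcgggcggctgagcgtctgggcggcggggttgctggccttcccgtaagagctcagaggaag
Pygm: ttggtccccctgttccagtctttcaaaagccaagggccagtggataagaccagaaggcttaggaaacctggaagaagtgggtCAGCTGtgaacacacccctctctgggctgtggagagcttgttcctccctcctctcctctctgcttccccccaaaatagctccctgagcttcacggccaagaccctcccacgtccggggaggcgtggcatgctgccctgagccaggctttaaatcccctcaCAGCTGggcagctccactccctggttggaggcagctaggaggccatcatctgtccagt

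The Ppp1r3c window held CACGTG at 104 bases before the start and CAGCTG at 161 bases before it. In the Ppp1r3d window, CACGTG lay 226 bases before the start. The Pygm window held CAGCTG at 168 and at 8 bases before the start. Promoters of 8 of the 9 members were in the table, in 9 windows, because Ugp2 has 2 and Ppp1r3b was not in it. CACGTG occurred in 2 of these members and CAGCTG in 4, among them Gys1 and Ugp2. Both motifs read the same on both strands, and their letters do not allow a match of one to overlap a match of the other. Of all 32851 promoter windows of the same length, 7.15% held CACGTG and 16.3% held CAGCTG. A match of letters is a description of the sequence and not a measured binding site.

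Libraries held 18.2 to 20.9 M counts (M, mega), and between 17379 and 17854 genes had reads. Levels are given below as counts per M (CPM), scaled by the TMM method over all 20 libraries, and as FPKM (fragments per kilobase and M) where genes are compared with each other. Markers of other tissues varied between libraries of a group. The mean log2 CPM of 17 skeletal muscle markers lay between 6.10 and 7.09 in AD controls, between 5.01 and 6.60 in AD SB415286 libraries other than library 7, and at 2.05 in that library. The mean of the 9 cartilage markers kept in the fit of all 20 libraries lay between 4.52 and 5.28 in AD controls other than library 6, and at 3.09 in that library. In ACD SB415286 library 8 the muscle mean was 1.78. Keratinocyte markers were abundant throughout, at a summed level of 8810 CPM or more, as an ear holds skin.

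Ugp2 had the highest level per length of the 9 members in every group, at 31.6 ± 2.41 FPKM in AD controls and 33.8 ± 1.67 FPKM in ACD controls (SD, n = 5). In AD controls Pygm followed at 18.9 ± 8.72 FPKM and Pygb at 18.2 ± 3.14 FPKM, which did not differ beyond their spread. Next came Ppp1r3c at 12.6 ± 4.05 FPKM and Gys1 at 12.1 ± 3.25 FPKM, again within their spread of each other. Pygl at 9.85 ± 2.21 FPKM and Gbe1 at 7.89 ± 1.06 FPKM were lower, and Ppp1r3b at 1.75 ± 0.627 FPKM and Ppp1r3d at 1.39 ± 0.334 FPKM were lowest. In ACD controls the order below Ugp2 was another one. Pygl was second at 27.3 ± 4.16 FPKM, and Gys1 at 11.7 ± 0.903 FPKM and Pygb at 11.2 ± 1.2 FPKM followed within their spread of each other. Ppp1r3b at 9.16 ± 2.61 FPKM, Ppp1r3c at 7.17 ± 1.95 FPKM, Gbe1 at 7.14 ± 0.762 FPKM, Ppp1r3d at 6.19 ± 1.05 FPKM and Pygm at 5.54 ± 1.35 FPKM came last, and their ranges over libraries overlapped from each to the next.

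**Figure D1:**
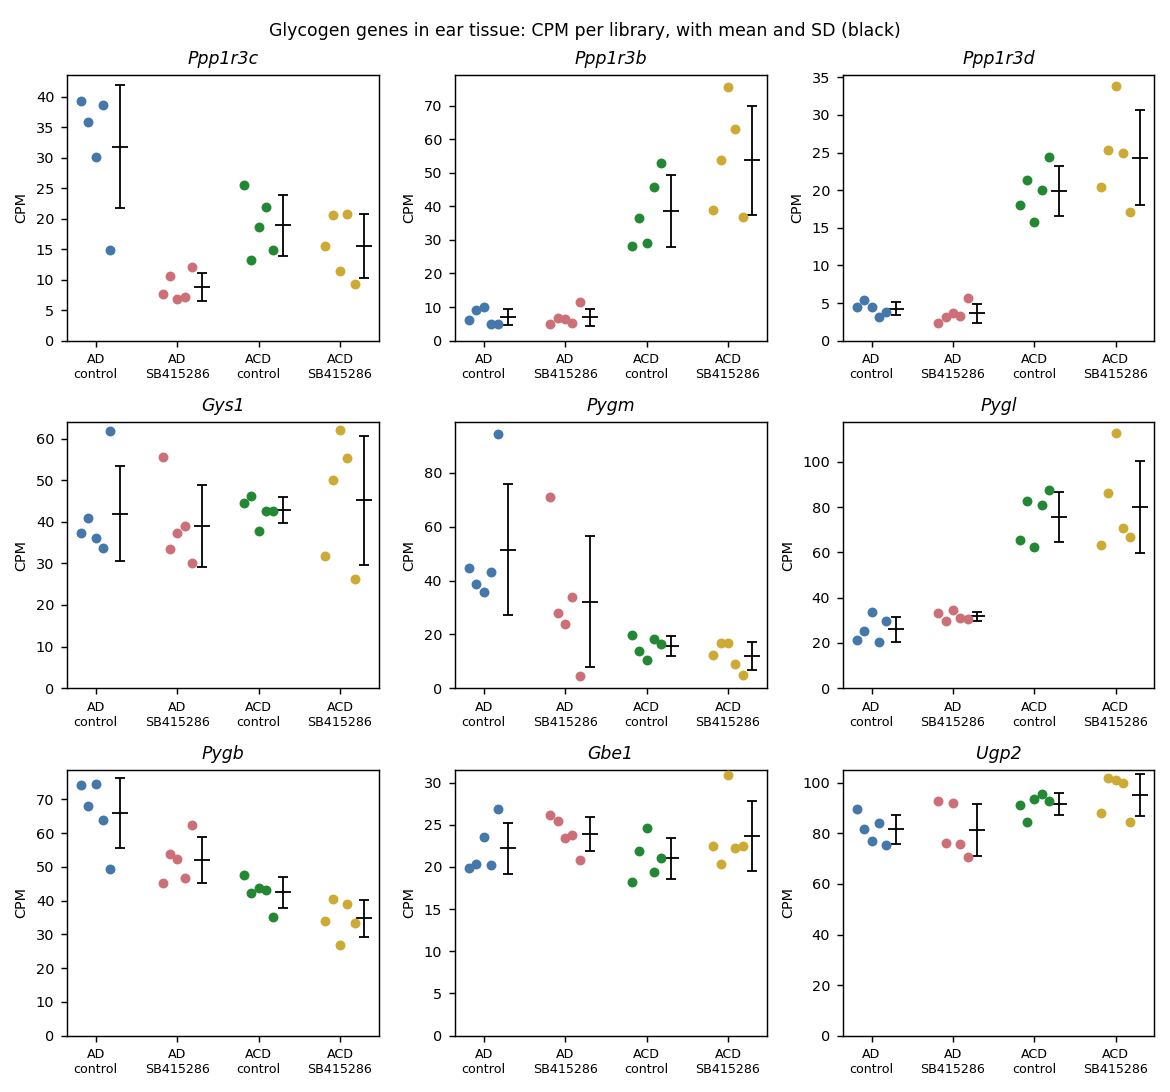
Each panel shows 1 member, with its level in CPM on the vertical axis and the 4 groups on the horizontal axis; each point is a library and the black bars are the group mean and SD (n = 5). Ppp1r3c is lower in all 5 AD SB415286 libraries (6.89 to 12.0 CPM) than in all 5 AD controls (14.8 to 39.3 CPM), while Ppp1r3b, Ppp1r3d and Pygl are higher in both ACD groups than in both AD groups.

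The AD comparison asked how SB415286 changed gene expression in the ears of AD model mice. Of the 9 members, 1 was called lower and none higher: Ppp1r3c was 3.6-fold lower with SB415286. Genes were called at an adjusted p under 0.05 in the quasi-likelihood test of edgeR, with p-values adjusted over all 15149 genes tested by the Benjamini-Hochberg method, and 1.23% of those genes were called, 0.587% higher and 0.647% lower. The median log2 change of the 9 members was -0.12, beside 0.001 over all genes tested.

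Ppp1r3c encodes the PP1 subunit also called PTG (protein targeting to glycogen). Its level was 39.3, 35.9, 30.1, 38.7 and 14.8 CPM in AD controls 1, 2, 4, 5 and 6. With SB415286 it was 7.6, 10.6, 6.89, 7.13 and 12.0 CPM in libraries 2, 3, 4, 6 and 7. The groups did not overlap, which held for 4.65% of all genes tested, and control 6 was the control nearest to the injected group. The group means were 31.8 ± 10.1 and 8.84 ± 2.31 CPM (SD, n = 5), and the log2 fold change was -1.85 ± 0.27 (SE), with an adjusted p of 0.0382 in edgeR's quasi-likelihood test. The log2 change lay between -2.03 and -1.76 whichever library was left out, but only without SB415286 library 7 or without control 6 did it remain past the threshold, and the adjusted p ranged from 0.00685 to 0.124. The count of all genes called ran from 0 to 1423 over the same 10 fits, beside 187 with all libraries.

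**Figure D2:**
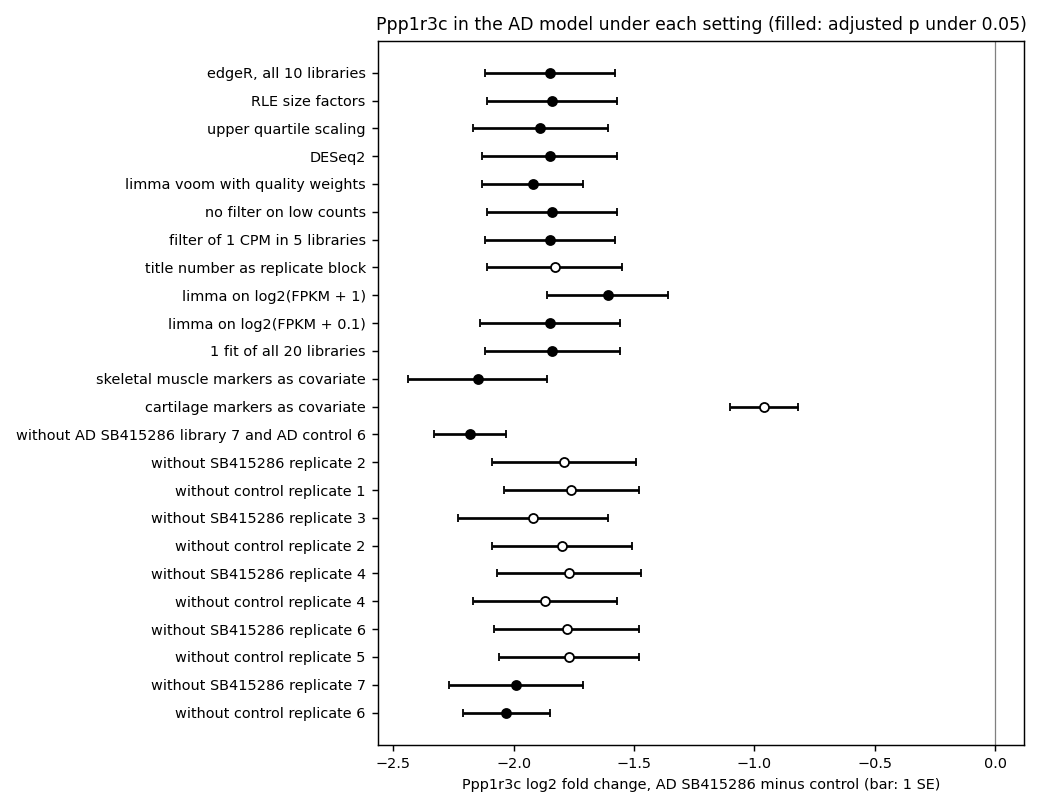
The horizontal axis is the log2 fold change of Ppp1r3c, AD SB415286 minus AD control, and each line is a processing alternative or a left-out library, with a bar of 1 SE; filled points had an adjusted p under 0.05. All points lie below 0, between -2.18 and -0.96, and the change nearest to 0 is the fit with cartilage markers as a covariate.

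Cartilage markers moved with Ppp1r3c. Their mean log2 CPM was 5.28, 4.52, 4.52, 4.61 and 3.09 in AD controls 1, 2, 4, 5 and 6. In AD SB415286 libraries 2, 3, 4, 6 and 7 it was 2.83, 3.39, 2.90, 2.92 and 3.88. Control 6 was the lowest control in both Ppp1r3c and these markers, and SB415286 library 7 was the highest library of its group in both. Of 8 cartilage markers tested, 1 was called lower, the transcription factor gene Sox9 at -1.03 ± 0.21 on the log2 scale (SE, adjusted p = 0.0488 in edgeR's quasi-likelihood test), 7 were below 0, and their median was -1.41. The summed level of the list was 403 to 611 CPM in AD controls and 365 to 486 CPM with SB415286, and the cartilage gene Matn1 was under 0.1 CPM in every library of both groups. The mean of the cartilage markers was also used as a covariate, an alternative chosen after the data were seen. The log2 change of Ppp1r3c was then -0.96 ± 0.14 (SE, adjusted p = 0.173 in edgeR's quasi-likelihood test), in a fit that called 2 genes. With the mean of the muscle markers as a covariate it was -2.15 ± 0.29 (adjusted p = 0.00999 in the same test). Most markers of both lists were below 0 with SB415286, so either covariate can also remove part of an effect of SB415286. How large that part was, was not tested. In bulk tissue, fewer cells of a type and less RNA per cell cannot be told apart.

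The genes whose pattern was most like that of Ppp1r3c were Col10a1 (r = 0.95), Clec3a (r = 0.946), Jmjd8 (r = 0.945), Igdcc4 (r = 0.929) and Cmtm5 (r = 0.922). Likeness was Pearson's r of log2 CPM over the 20 libraries after the mean of each model was subtracted, among 15700 genes, and libraries share their tissue make-up. Col10a1 encodes the collagen of hypertrophic cartilage, and Clec3a a lectin of cartilage. The AD difference between injected and control libraries was part of what chose these genes, so their own AD changes add no support.

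**Figure D3:**
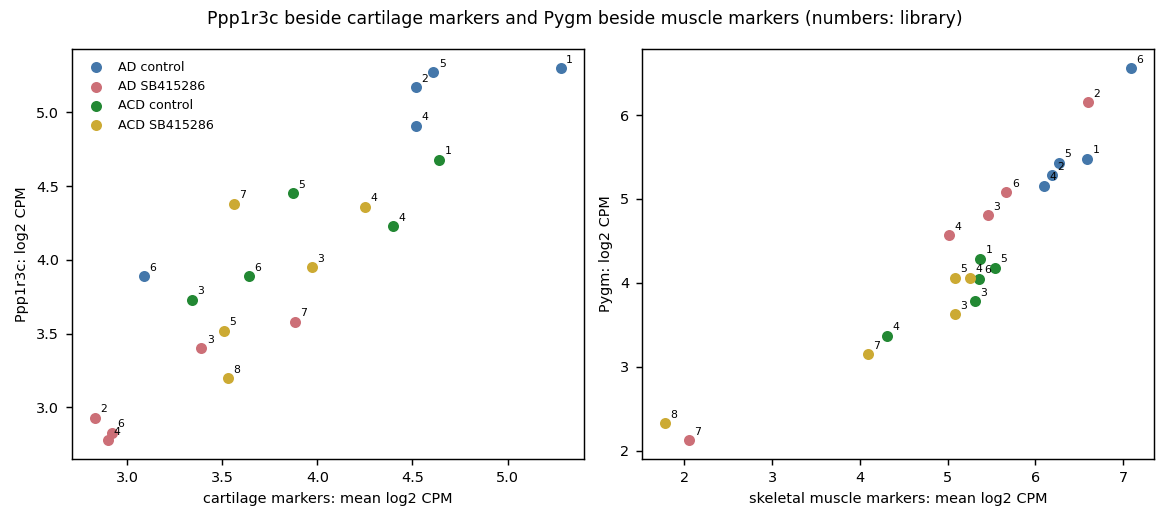
Each point is 1 of the 20 libraries, numbered, with colours for the 4 groups. The left panel sets Ppp1r3c (log2 CPM) against the mean log2 CPM of cartilage markers and the right panel Pygm (log2 CPM) against that of skeletal muscle markers; AD control 6 lies at 3.09 on the cartilage axis, and AD SB415286 library 7 and ACD SB415286 library 8 lie at 2.05 and 1.78 on the muscle axis, where Pygm is lowest.

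The other PP1 subunits did not pass in the AD model without a covariate. Ppp1r3b, known as the main glycogen-targeting subunit of liver, had 6.03, 8.99, 9.89, 4.97 and 4.99 CPM in AD controls and 4.85, 6.64, 6.53, 5.17 and 11.4 CPM with SB415286. The groups overlapped, and the highest value of all was SB415286 library 7. Its log2 change was -0.02 ± 0.28 (SE, adjusted p = 0.982 in edgeR's quasi-likelihood test), with a 95% interval from -0.57 to 0.54. The 95% intervals here and below use the SE and a normal distribution, so they are narrower than the test would give. Ppp1r3d, a subunit of wide expression, ranged from 3.12 to 5.39 CPM in controls and from 2.37 to 5.65 CPM with SB415286, and its log2 change was -0.23 ± 0.24 (adjusted p = 0.619). With muscle markers as a covariate the change of Ppp1r3d was -0.68 ± 0.20 and passed (adjusted p = 0.0472 in edgeR's quasi-likelihood test). With cartilage markers as a covariate it was 0.11 ± 0.29 and did not pass (adjusted p = 0.887 in edgeR's quasi-likelihood test). Per length, Ppp1r3c made up 79.1 ± 6.7% of the summed FPKM of the 3 subunits in AD controls and 55.2 ± 5.41% with SB415286 (SD, n = 5). Ppp1r3b made up 11.6 ± 3.82% and 26.5 ± 2.91% of these sums, which were 15.8 ± 4.42 and 6.14 ± 2.11 FPKM. The shares are descriptions and were not tested.

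The genes of synthesis overlapped between the AD groups. Gys1 had 37.2, 41.0, 36.1, 33.8 and 61.9 CPM in AD controls and 55.7, 33.4, 37.2, 38.9 and 30.0 CPM with SB415286. Control 6 and SB415286 library 2, the highest of their groups, were also the highest of their groups in muscle markers, at 7.09 and 6.60. The log2 change of Gys1 was -0.12 ± 0.20 (SE, adjusted p = 0.776 in edgeR's quasi-likelihood test). Ugp2 stayed between 70.5 and 92.9 CPM in all 10 libraries, with a log2 change of -0.01 ± 0.09 and a 95% interval from -0.19 to 0.17 (adjusted p = 0.96). Gbe1 lay between 19.9 and 26.9 CPM, with a log2 change of 0.10 ± 0.10 and a 95% interval from -0.10 to 0.30 (adjusted p = 0.62). For neither gene did an injected library lie far outside the control range.

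Among the phosphorylases, Pygm was the most variable. It had 44.7, 38.7, 35.9, 43.0 and 94.4 CPM in AD controls and 70.9, 28.1, 23.8, 33.9 and 4.37 CPM with SB415286. The groups overlapped, and control 6 was high and SB415286 library 7 low, as they were in muscle markers. Its log2 change was -0.69 ± 0.55 (SE, adjusted p = 0.502 in edgeR's quasi-likelihood test), and 0.28 ± 0.15 (adjusted p = 0.229) with the mean of the muscle markers as a covariate. With cartilage markers as a covariate it was -2.0 ± 0.66 (adjusted p = 0.247). All 17 muscle markers were below 0, with a median of -1.0 and none called, and their summed level was 2090 to 4900 CPM in AD controls and 180 to 3940 CPM with SB415286. Among the genes most like Pygm over the 20 libraries were Ryr1 (r = 0.981), Myom1 (r = 0.98), Cmya5 (r = 0.975) and Tnni2 (r = 0.974), which encode proteins of the muscle sarcomere and its calcium release.

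Pygb had 74.2, 67.9, 74.4, 63.9 and 49.3 CPM in AD controls and 45.2, 53.8, 52.4, 46.6 and 62.4 CPM with SB415286. The groups overlapped through control 6 alone, since the highest injected library, library 7, lay below the other 4 controls. Control 6 was also the lowest control, and library 7 the highest injected library, in cartilage markers. The log2 change was -0.35 ± 0.13 (SE, adjusted p = 0.178 in edgeR's quasi-likelihood test). It was -0.54 ± 0.12 (adjusted p = 0.0222) with muscle markers as a covariate and 0.02 ± 0.10 (adjusted p = 0.928) with cartilage markers as a covariate. Without both libraries it was -0.52 ± 0.09 (adjusted p = 0.00519), and without control 6 alone -0.43 ± 0.11 (adjusted p = 0.0378). Pygl ranged from 20.6 to 33.6 CPM in controls and from 29.7 to 34.6 CPM with SB415286, with a log2 change of 0.28 ± 0.13 (adjusted p = 0.271).

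Other genes of the pathway did not pass in the AD model. Of 11 further enzymes and transporters, 10 were tested and none was called, with a median log2 change of -0.03. Gys2, the liver form of glycogen synthase, was not tested, at 0.278 ± 0.319 CPM (SD, n = 5) in AD controls. Of 17 further regulators, 16 were tested and none was called, with a median of -0.06. The smallest p belonged to 2 subunits of phosphorylase kinase, the enzyme that activates phosphorylase. Phkb had 26.9 ± 1.49 CPM in controls and 19.8 ± 2.37 CPM with SB415286, and its log2 change of -0.45 ± 0.09 (SE) missed the threshold at an adjusted p of 0.0504 in edgeR's quasi-likelihood test. Phkg1, the catalytic subunit of muscle, had a log2 change of -1.29 ± 0.37 (adjusted p = 0.0967) at a low level of 2.14 ± 0.489 CPM in controls. None of 12 glycolysis enzymes was called, with a median of 0.01. At an unadjusted p under 0.05, the test held 2 members and 3048 of all genes.

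The ACD comparison asked the same of the higher dose in ACD model mice. In edgeR's quasi-likelihood test 0 of 9 members were called, where 0.0264% of 15150 genes were called. A member that was not called may still have changed. At an unadjusted p under 0.05 the test held 1 member, Pygb, and 2092 of all genes. DESeq2 and limma voom also called 0 members. The median log2 change of the members was 0.06, beside -0.006 over all genes tested. The groups overlapped in all 9 members, and 3.31% of all genes did not overlap.

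In the ACD model Ppp1r3c had 25.6, 13.3, 18.7, 21.9 and 14.8 CPM in controls 1, 3, 4, 5 and 6. In SB415286 libraries 3, 4, 5, 7 and 8 it had 15.5, 20.6, 11.5, 20.8 and 9.22 CPM. The injected libraries were spread over the control range and below it. The log2 change was -0.29 ± 0.24 (SE, adjusted p = 0.632 in edgeR's quasi-likelihood test), with a 95% interval from -0.77 to 0.19. Cartilage markers had a median log2 change of -0.35 here, with 0 of 9 called, and their means per library were 3.34 to 4.64 in controls and 3.51 to 4.25 with SB415286.

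Ppp1r3b had 28.2, 36.5, 29.0, 45.7 and 53.0 CPM in ACD controls and 39.0, 53.9, 75.7, 63.0 and 36.9 CPM with SB415286. Although 3 injected libraries lay above every control, the other 2 lay within the control range. Its log2 change was 0.47 ± 0.23 (SE, adjusted p = 0.403 in edgeR's quasi-likelihood test), and that of Ppp1r3d was 0.27 ± 0.17 (adjusted p = 0.523), from 15.8 to 24.4 CPM in controls and 17.1 to 33.8 CPM with SB415286. Library 5, the highest for both genes, was also the highest in neutrophil markers, at a mean log2 CPM of 7.97. All 10 neutrophil markers were above 0 in this comparison, with none called and a median of 0.75, and their part in these values was not tested.

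Pygb had 47.7, 42.3, 43.7, 43.2 and 35.1 CPM in ACD controls and 34.0, 40.5, 26.9, 39.0 and 33.3 CPM with SB415286. The injected values reached below the controls and overlapped with control 6. Its log2 change was -0.30 ± 0.11 (SE, adjusted p = 0.278 in edgeR's quasi-likelihood test). Pygm, at 10.3 to 19.6 CPM in controls and 5.03 to 16.7 CPM with SB415286, had a log2 change of -0.40 ± 0.29 (adjusted p = 0.577), and -0.02 ± 0.13 (adjusted p = 0.955) with muscle markers as a covariate. Its lowest value was in library 8, where muscle markers were lowest. Pygl had a log2 change of 0.06 ± 0.16 (adjusted p = 0.894).

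Synthesis genes in the ACD model also overlapped. Gys1 spread from 26.2 to 62.2 CPM with SB415286, against 37.9 to 46.1 CPM in controls, so its injected libraries lay on both sides of the control range. Its log2 change was 0.07 ± 0.21 (SE, adjusted p = 0.916 in edgeR's quasi-likelihood test). Gbe1 and Ugp2 had log2 changes of 0.16 ± 0.12 (adjusted p = 0.601) and 0.05 ± 0.07 (adjusted p = 0.808). Of the further pathway genes, 0 of 10 enzymes and 0 of 16 regulators were called, with medians of 0.03 and 0.02. Gsk3a, which encodes 1 of the 2 GSK3 kinases, had the smallest p among them, from 160 ± 1.56 CPM in controls to 182 ± 7.04 CPM with SB415286 (SD, n = 5), a log2 change of 0.18 ± 0.05 (adjusted p = 0.181). Hk1, a hexokinase, had a log2 change of 0.29 ± 0.11 (adjusted p = 0.292).

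**Figure D4:**
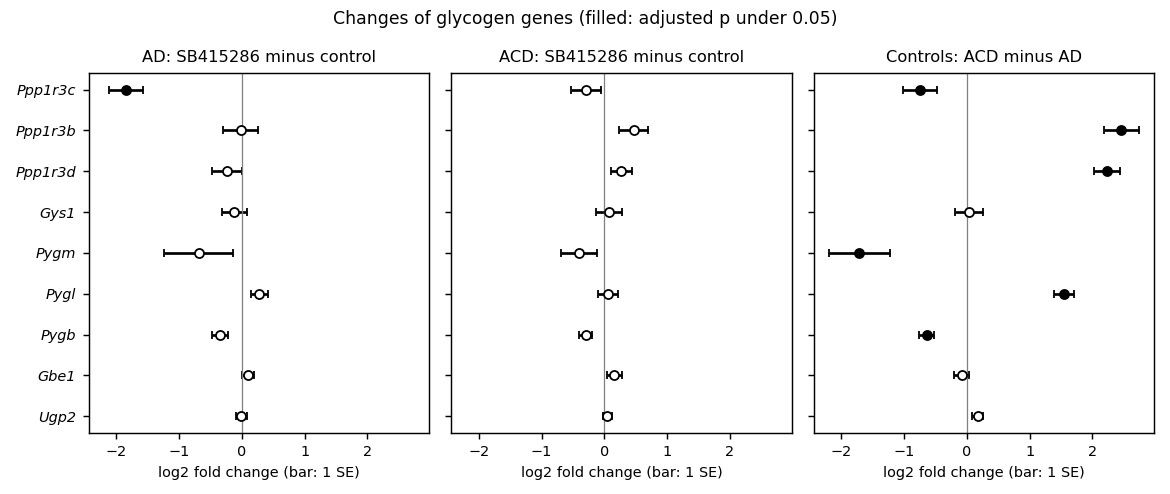
The horizontal axis of each panel is a log2 fold change with a bar of 1 SE, for the 9 members; filled points had an adjusted p under 0.05 in edgeR's quasi-likelihood test. Ppp1r3c at -1.85 is the only filled point for SB415286 in the AD model, no point is filled in the ACD model, and 6 of 9 are filled between the controls.

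The difference of the SB415286 effect between the models was tested in 1 fit of all 20 libraries, in which model, dose and table change together. None of the 9 members was called, where 0.051% of 15700 genes were, and 1 member and 1975 genes had an unadjusted p under 0.05. For Ppp1r3c the effect in ACD was 1.56 ± 0.38 higher on the log2 scale than in AD (SE, adjusted p = 0.122 in edgeR's quasi-likelihood test). DESeq2 gave an adjusted p of 0.0124 for this difference and limma voom 0.0116, so whether the effects differed depended on the test. It also passed without AD SB415286 library 7 (1.70 ± 0.39, adjusted p = 0.0344) and without AD control 6 (1.74 ± 0.33, adjusted p = 0.0245). Of 20 fits with 1 library left out, only these 2 passed, and the adjusted p ranged from 0.0245 to 0.25 in edgeR's quasi-likelihood test. Of 8 other alternatives, 3 passed. The other members had adjusted p of 0.48 or more. Cartilage markers differed in the same direction as Ppp1r3c, with 8 of 9 above 0, 1 below and a median of 1.24. Of these 9, 1 was called, Sox9 at 1.29 ± 0.23 (SE, adjusted p = 0.0495 in edgeR's quasi-likelihood test). The part of cartilage in the difference of Ppp1r3c was not tested, as no marker covariate was used here.

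The controls of the models were compared with each other in the same fit. This comparison shares its control libraries with the comparisons above, and model and table cannot be told apart in it. Ppp1r3b, Ppp1r3d and Pygl were higher in ACD controls, and Pygm, Pygb and Ppp1r3c lower. These 6 of 9 members stand beside a background of 61.6% of 15700 genes called, 29.5% higher and 32.0% lower, so the count is near that of genes at large. The groups did not overlap in 5 members, beside 47.3% of all genes.

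Among the PP1 subunits, Ppp1r3b rose from 6.98 ± 2.31 CPM in AD controls to 38.5 ± 10.7 CPM in ACD controls (SD, n = 5), a 5.51-fold difference of 2.46 ± 0.28 on the log2 scale (SE, adjusted p = 1.25e-06 in edgeR's quasi-likelihood test). The lowest ACD control, at 28.2 CPM, lay above the highest AD control, at 9.89 CPM. Ppp1r3d rose 4.68-fold, from 4.24 ± 0.853 to 19.9 ± 3.27 CPM, or 2.23 ± 0.21 on the log2 scale (adjusted p = 2.58e-07), again without overlap. Ppp1r3c was 1.68-fold lower, at 18.9 ± 5.05 CPM against 31.8 ± 10.1 CPM, or -0.75 ± 0.27 on the log2 scale (adjusted p = 0.0209), and the groups overlapped. That call ended without AD control 1, AD control 5, ACD control 3 or ACD control 6, with adjusted p of 0.0508, 0.0521, 0.0581 and 0.0539. Per length, Ppp1r3c held 32.2 ± 9.15% of the 3 subunits in ACD controls and 22.8 ± 6.12% in ACD SB415286 libraries, and Ppp1r3b 40.2 ± 7.02% and 48.3 ± 4.55% (SD, n = 5). By library, the largest share belonged to Ppp1r3c in all 10 AD libraries. It also did in ACD control 1, at 44.1% against 30.4% for Ppp1r3b, and in ACD control 4, at 37.6% against 36.5%. In the other ACD libraries the largest share belonged to Ppp1r3b.

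**Figure D5:**
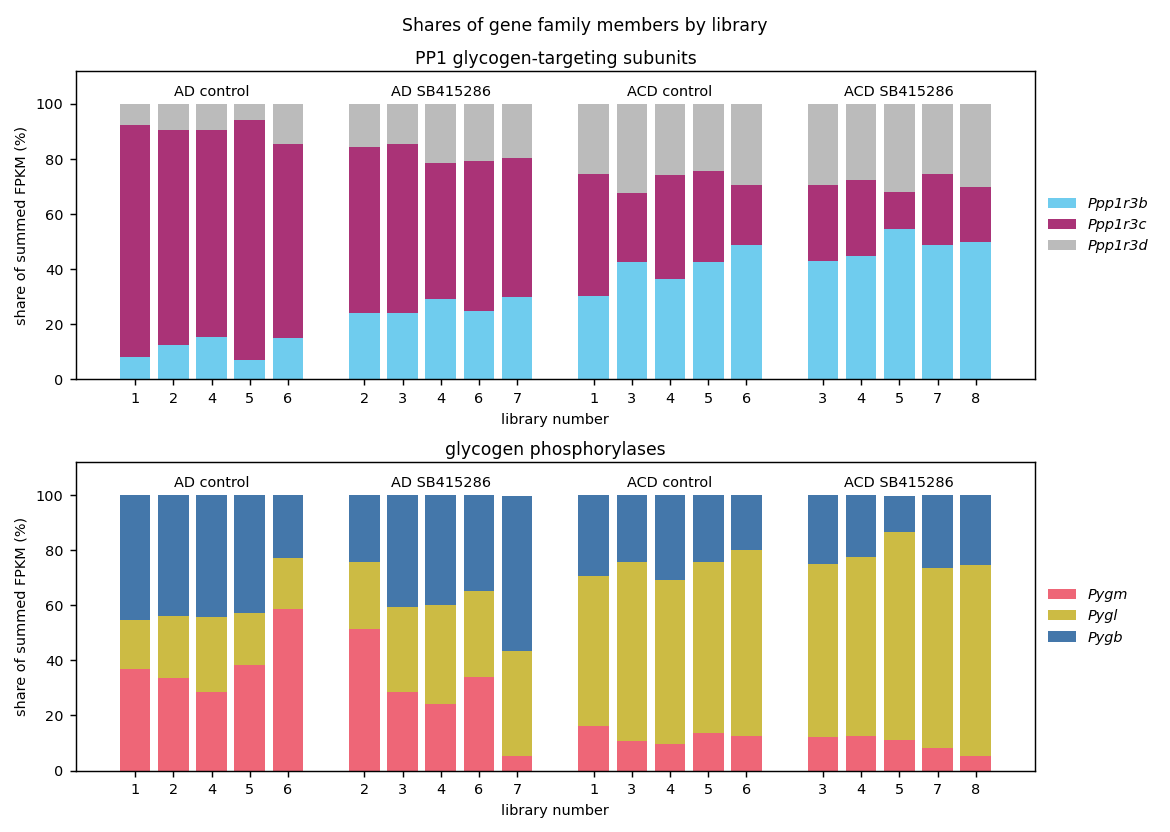
Each bar is a library, split into the percentage of the summed FPKM held by each member of a family, the 3 PP1 subunits above and the 3 phosphorylases below, with the libraries in 4 groups. Ppp1r3c fills 79.1% of the subunit bars on average in AD controls and 55.2% with SB415286, and Pygl fills 61.8% of the phosphorylase bars in ACD controls against 21.0% in AD controls.

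The phosphorylases differed between the controls in opposite directions. Pygl rose 2.9-fold, from 26.1 ± 5.56 CPM in AD controls to 75.7 ± 11.2 CPM in ACD controls (SD, n = 5), or 1.54 ± 0.16 on the log2 scale (SE, adjusted p = 5.19e-07 in edgeR's quasi-likelihood test). Pygm fell 3.28-fold, from 51.4 ± 24.3 to 15.7 ± 3.7 CPM, or -1.71 ± 0.48 on the log2 scale (adjusted p = 0.0047), and Pygb fell 1.56-fold, from 66.0 ± 10.3 to 42.4 ± 4.55 CPM (adjusted p = 0.00026). None of the 3 overlapped between the control groups. The summed FPKM of the family was 47.0 ± 7.21 in AD controls and 44.0 ± 4.2 in ACD controls, which is within the spread, while the share of Pygl was 21.0 ± 3.89% and 61.8 ± 4.99%. Pygm held 39.2 ± 11.4% and 12.5 ± 2.53%, and Pygb 39.8 ± 9.6% and 25.7 ± 4.32%.

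The synthesis genes were not called between the controls in edgeR's test of all libraries. Gys1 had 42.0 ± 11.4 CPM in AD controls and 42.8 ± 3.08 CPM in ACD controls (SD, n = 5), a log2 difference of 0.03 ± 0.22 (SE, adjusted p = 0.923 in edgeR's quasi-likelihood test). Gbe1 had 22.2 ± 3.01 and 21.0 ± 2.44 CPM, a difference of -0.08 ± 0.12 (adjusted p = 0.565). Ugp2 had 81.6 ± 5.63 and 91.5 ± 4.3 CPM, a difference of 0.17 ± 0.08 (adjusted p = 0.0864). Ugp2 passed as higher in ACD controls with DESeq2 (0.18, adjusted p = 0.0492), with upper quartile scaling (0.20, adjusted p = 0.049) and without AD SB415286 library 4 (0.18, adjusted p = 0.0475). Exons of Gys1 share 310 bases, 6.47% of its exon length, with Ruvbl2 on the other strand, and those of Ugp2 share 78 bases, 2.54%, with Gm12043. Whether the counting used strand is not given in the sources used here, so reads from these stretches cannot be assigned.

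Cell type markers moved with these differences between the controls. The counts below stand beside 29.5% of all genes called higher and 32.0% called lower. All 10 neutrophil markers were called higher in ACD controls, with a median log2 difference of 3.71, and their summed level was 145 to 511 CPM in AD controls and 2870 to 5180 CPM in ACD controls. Of 17 skeletal muscle markers, 6 were called lower, with a median of -0.95, a share near the 32.0% of all genes called lower. Still, 16 of them were below 0 and 1 above. Their summed level did not overlap, at 2090 to 4900 CPM in AD controls and 608 to 1480 CPM in ACD controls. Of 10 keratinocyte markers, 7 were called lower, with a median of -1.62. Of 9 cartilage markers tested, 4 were called lower, with a median of -0.56, and of 10 adipocyte markers 5 were, with a median of -0.71. Of 9 T cell markers tested, 7 were called higher, with a median of 1.22, and of 10 macrophage markers 6 were called higher and 2 lower, with a median of 0.49. Within the AD model, where neutrophil markers were low, SB415286 library 7 was highest in these markers, at a mean log2 CPM of 4.31, and highest in Ppp1r3b and Ppp1r3d. The part of these cell types in the differences of the 6 members called was not tested.

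Most genes at large were called between the controls, and so were most other genes of the pathway. Of 10 further enzymes and transporters tested, 6 were higher and 2 lower, with a median log2 difference of 0.31, beside 29.5% of all genes called higher, 32.0% called lower and a median of -0.04 over all genes. The phosphoglucomutase genes Pgm1 and Pgm2, which interconvert glucose 1-phosphate and glucose 6-phosphate, rose by 1.04 ± 0.12 and 0.70 ± 0.09 (SE, adjusted p = 1.61e-06 and 2.6e-06 in edgeR's quasi-likelihood test). Hk1 and Hk2, hexokinases, rose by 0.52 ± 0.11 and 0.33 ± 0.13, Gyg, the primer of glycogen, by 0.51 ± 0.16, and Slc37a4, the glucose 6-phosphate transporter, by 0.29 ± 0.11. Pgm2l1 fell by 0.85 and Gaa, the lysosomal glucosidase, fell by 0.35. G6pc3, a glucose 6-phosphatase, did not pass, at 0.09 ± 0.07.

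Of 17 further regulators, 4 were higher and 11 lower in ACD controls, with a median log2 difference of -0.54, again beside 29.5% of all genes called higher and 32.0% called lower. The higher ones were the PP1 catalytic subunits Ppp1ca (0.32 ± 0.06, SE) and Ppp1cc (0.26 ± 0.07), the phosphorylase kinase subunit Phkg2 (0.34 ± 0.08) and Ppp1r3g (2.44 ± 0.45), which stayed low, at 0.123 ± 0.0539 CPM in AD controls and 0.696 ± 0.313 CPM in ACD controls (SD, n = 5). Among the lower ones, Ppp1r3a, the subunit of muscle, fell by 2.19, Phkg1 fell by 1.43, Stbd1, which binds glycogen, fell by 1.16, and Epm2a, the glycogen phosphatase laforin, fell by 0.99. Ppp1cb fell by 0.69, Phkb fell by 0.62, Ppp1r3e fell by 0.62, Phka2 fell by 0.61, Gsk3b fell by 0.54, Nhlrc1, a ubiquitin ligase, fell by 0.49 and Phka1 fell by 0.39. Gsk3a and Ppp1r3f did not pass, at 0.10 ± 0.06 and 0.10 ± 0.20. Of 12 glycolysis enzymes, 10 were higher and 1 lower, with a median of 1.07, beside the same 29.5% higher and 32.0% lower.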

How the data were processed

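Ear RNA was selected with oligo(dT) and sequenced on the MGISEQ-2000, per the labels' protocols. The authors deposited 1 table per model, with expected counts per gene, not normalised, and FPKM values per gene and library. HISAT, HISAT2, Bowtie2 2.2.5 and RSEM 1.2.8, with GRCm38.p6 and GRCh38.p13, are listed per the submitters' processing notes, without their roles. Whole-number counts made up 64.8 to 66.9% of genes in AD libraries and 36.6 to 43.5% in ACD libraries, so the tables may have been made differently. The 20 TPM columns and 18 mean columns of the authors were not used.

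Groups came from the sample labels. Expected counts were rounded and tested in R 4.3.3 with edgeR 4.0.16 (filterByExpr by group, TMM, robust quasi-likelihood test, 2-sided, Benjamini-Hochberg over all genes tested, adjusted p under 0.05). AD and ACD were fitted apart, and the difference between models and between controls in 1 fit of 20 libraries. Printed CPM use the scaling of that fit. Gene identifiers were matched to RefSeq, 19177 in the AD table and 19442 in the ACD table. The exons that genes share come from GENCODE on GRCm38. Alternatives used DESeq2 1.42.0, limma 3.58.1 (voom, and log2(FPKM + 1) or log2(FPKM + 0.1) filtered at 1 FPKM in 5 libraries), other scalings and filters, marker covariates (mean log2 CPM, prior count 2), a number block and left-out libraries. Each covariate averaged all genes of its list, without the filter and scaled within the model, unlike the printed marker means. The tests were checked on simulated data drawn independently for each gene and library. Those data lacked the shared variation of tissue markers between libraries, so the check does not cover it.

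The 9 members and the lists were chosen with earlier results of these data known. All members are named. Of the 2 further lists, every gene past the threshold is named, and otherwise the 2 with the smallest p. For Ppp1r3c and Pygm, the 5 genes most like each are named, except that an item withheld for evaluation is not reported here. Library totals limit the precision for low genes, and reads carried no molecular identifiers, so they are not independent counts of molecules.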

Additional observations from a re-analysis of the deposited data

Results flagged for a closer look

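Of 36 sets of 5 libraries (9 members in 4 groups), 4 held a library far from the others by Dixon's test on CPM, and chance gives about 1 in 20. Ppp1r3b was 11.4 CPM in AD SB415286 library 7, and the next highest library of that group was at 6.64 CPM. Gys1 was 61.9 CPM in AD control 6, with the next highest control at 41.0 CPM, and Pygm was 94.4 CPM in the same library, with the next highest control at 44.7 CPM. Gbe1 was 30.9 CPM in ACD SB415286 library 5, with the next highest library of that group at 22.5 CPM. AD control 6 had the highest mean of skeletal muscle markers of its group, and AD SB415286 library 7 the highest mean of neutrophil markers of its group; their part in these values was not tested.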

How the results depend on the processing

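No result changed direction with a call. For single members, 882 of 909 values kept their side of the threshold, 14 lost a call (12 of them with 1 library left out) and 13 gained one (4 of them with 1 library left out). In the AD comparison, 187 genes and 1 member were called. DESeq2 called 1227 genes, limma voom 3588 genes and 2 members, no filter 48 genes, 1 fit of all 20 libraries 1461 genes, the muscle covariate 2141 genes and 3 members, the cartilage covariate (chosen after the data were seen) 2 genes and 0 members, and the fit without AD SB415286 library 7 and AD control 6 called 3894 genes and 2 members. Leaving out 1 library gave 0 to 1423 genes and 0 to 2 members. In the ACD comparison, 4 genes were called, 13 with upper quartile scaling, 416 with DESeq2, 17 with voom, 12 with either FPKM pseudocount, 12 with the muscle covariate and 2 to 18 with 1 library left out, and 0 members in each. For the difference between models, 8 genes and 0 members were called, 14 genes with upper quartile scaling, 178 with DESeq2, 1187 with voom, 5 with no filter, 2117 without those 2 AD libraries, and 1 to 312 with 1 library left out. Ppp1r3c was the 1 member called by DESeq2, by voom and without the 2 AD libraries, and 0 to 1 members were called with 1 library left out. Between the controls, 9667 genes and 6 members were called, and 9079 to 9991 genes and 5 to 7 members with 1 library left out; DESeq2 and upper quartile scaling called 7 members, with Ugp2 added. The causes of these changes were not tested.

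Deviations of same-numbered libraries correlated at -0.17, -0.20 and 0.25 in AD and at -0.18, -0.01 and 0.20 in ACD. Pairs with different numbers ran from -0.51 to 0.41 in AD and from -0.44 to 0.43 in ACD. So few same-numbered pairs cannot settle whether the numbers in the titles pair libraries. Only numbers 2, 4 and 6 occurred in both AD groups, and only 3, 4 and 5 in both ACD groups. With the number as a block, the SB415286 change in a model rests on those libraries alone, fewer than in the main fit. With the number as a replicate block, 0 genes and 0 members were called in AD (2255 genes at an unadjusted p under 0.05), with Ppp1r3c at -1.83 ± 0.28 (SE, adjusted p = 0.255 in edgeR's quasi-likelihood test). The block gave 1 gene in ACD, 1 for the difference and 7347 between the controls.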
